A study of Mus musculus with 6 samples.

Results

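The Reg genes encode small secreted C-type lectins, and 6 of them were followed here in sorted Paneth cells (PCs): Reg3b, Reg3g, Reg3a, Reg3d, Reg1 and Reg4. They were taken by symbol from a table of 55414 genes, with the result of TNF injection already known, so their values in that comparison, and whether the fit over all genes called them, are a description and no test of the members. PCs, the granule-bearing secretory cells of the crypt base, had been sorted from the small intestine of C57BL/6J mice that were all IFNAR1 KO, that is, without Ifnar1, which encodes a type I interferon receptor chain, controls included. The mice had received an injection of phosphate-buffered saline (PBS, the control) or of tumour necrosis factor (TNF) 15 h earlier, and total RNA of 3 mice per group was sequenced, with a different mouse for each library. The labels name no age, sex, dose, litter or day, and there was no library from mice with an intact receptor.

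Reg3g and Reg3b are antibacterial lectins that epithelial cells of the gut secrete towards the lumen, where Reg3g is known for keeping Gram-positive bacteria away from the mucosal surface. In the small intestine their transcription is known to depend on IL-22 acting through STAT3, and on Toll-like receptor signals passed on by MyD88. Reg1 and Reg2 are best known from the exocrine pancreas, and Reg4 from secretory cells of the gut.

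All the Reg genes but Reg4 lie side by side. On mouse assembly GRCm39, chromosome 6 holds Reg3b (ENSMUSG00000071356, 78347640 to 78350455, plus strand), Reg3d (ENSMUSG00000068341, 78352857 to 78355848, minus strand), Reg3a (ENSMUSG00000079516, 78357692 to 78360810, plus strand), Reg1 (ENSMUSG00000059654, 78399694 to 78405828, plus strand) and Reg3g (ENSMUSG00000030017, 78443246 to 78445859, minus strand). Reg2 (ENSMUSG00000023140, 78372606 to 78385089, plus strand), a family gene outside the 6, lies between Reg3a and Reg1. These 6 genes of chromosome 6 span 98.2 kb, and no other protein-coding gene is annotated within that span. Reg4 (ENSMUSG00000027876, plus strand) is on chromosome 3, from 98129468 to 98144066. The canonical transcript of each has 6 exons.

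The promoters of the 4 Reg3 genes and of Reg4 are shown because these genes lie close together, or are of one family, and yet had very different levels in what follows. Each window runs from 250 bases before the start of the canonical transcript to 20 bases from the start on, was read from the GRCm39 genome and is written 5′ to 3′ on the strand of the gene. Capitals mark matches to TTCNNNGAA, the core of a STAT site, which is the same on both strands, and to TATAAA, searched on both strands.
Reg3b, chr6:78347594-78347863, plus strand: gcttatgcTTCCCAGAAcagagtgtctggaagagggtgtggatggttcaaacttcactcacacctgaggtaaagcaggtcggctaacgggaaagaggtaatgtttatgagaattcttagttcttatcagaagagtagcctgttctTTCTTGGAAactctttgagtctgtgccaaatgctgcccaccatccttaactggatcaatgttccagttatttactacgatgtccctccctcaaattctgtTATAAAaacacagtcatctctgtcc
Reg3g, chr6:78445837-78446106, minus strand: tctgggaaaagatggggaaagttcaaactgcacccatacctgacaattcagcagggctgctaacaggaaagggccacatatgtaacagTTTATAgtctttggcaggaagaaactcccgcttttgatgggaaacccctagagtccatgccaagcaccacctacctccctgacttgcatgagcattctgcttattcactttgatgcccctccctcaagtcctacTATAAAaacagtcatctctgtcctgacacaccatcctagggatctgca
Reg3a, chr6:78357442-78357711, plus strand: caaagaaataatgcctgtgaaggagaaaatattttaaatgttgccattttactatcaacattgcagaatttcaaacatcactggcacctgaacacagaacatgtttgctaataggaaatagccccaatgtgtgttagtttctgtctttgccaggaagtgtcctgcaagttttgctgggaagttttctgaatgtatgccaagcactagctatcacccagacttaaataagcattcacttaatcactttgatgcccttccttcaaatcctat
Reg3d, chr6:78355829-78356098, minus strand: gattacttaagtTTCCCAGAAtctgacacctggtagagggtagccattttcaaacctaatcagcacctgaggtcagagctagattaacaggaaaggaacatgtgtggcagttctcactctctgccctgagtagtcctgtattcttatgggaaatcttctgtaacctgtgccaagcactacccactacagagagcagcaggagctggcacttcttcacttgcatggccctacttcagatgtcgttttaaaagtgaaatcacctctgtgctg
Reg4, chr3:98129218-98129487, plus strand: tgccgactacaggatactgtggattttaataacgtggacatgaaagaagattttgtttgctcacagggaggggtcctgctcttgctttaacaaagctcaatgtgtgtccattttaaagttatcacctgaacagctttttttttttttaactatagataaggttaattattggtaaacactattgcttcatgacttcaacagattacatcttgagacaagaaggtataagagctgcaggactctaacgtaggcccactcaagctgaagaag
The window of Reg3b held 2 STAT cores, at 242 to 234 and at 105 to 97 bases before the start, and that of Reg3d held 1, at 238 to 230 bases before it. Among 21614 promoter windows of protein-coding genes, 8.2% held at least 1 such core. A TATAAA stood 28 to 23 bases before the start of Reg3g, which had a second match on the other strand at 162 to 157, and a TATAAA ended on the annotated start base of Reg3b. This hexamer was in 12.5% of all windows and also lay 30 to 25 bases before the start of Reg1. The windows of Reg3a and Reg4 held neither motif, and none of the Reg windows held TTCCNGGAA on either strand, a stricter STAT core that is contained in the first (1.03% of all windows). These are matches of letters and say nothing on binding.

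The transcripts were compared with each other, since reads of near-identical genes can be split between them in counting. Reg3b and Reg3g, the closest pair among the Reg3 genes shown, shared 76.4% of aligned coding bases, Reg3b and Reg3a 73.5%, and Reg4 shared 53.5% to 57.6% with the other Reg genes. No stretch of 50 bases in the canonical transcript of any of the 6 was found in another annotated gene. No source used here says how reads with several matches were counted.

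The libraries held 12747484 to 17039511 counts, and markers of PCs were high in all 6, with lysozyme Lyz1 between 134153 and 226165 CPM (counts set to a common total per library, here with TMM factors, which correct for differences in RNA composition). 1 library stood apart from its group. Over 13026 genes that passed a filter on low counts, log2 CPM of TNF replicate 1 correlated with TNF replicates 2 and 3 at 0.884 and 0.883 (Pearson, across genes, which are not independent replicates), whereas TNF replicates 2 and 3 correlated at 0.954 and the PBS libraries at 0.930 to 0.962. With the PBS libraries, TNF replicate 1 correlated at 0.937 to 0.945, within the range of the PBS pairs. By the chi-square of the counts per degree of freedom, it differed more from PBS (41.1 to 45.8) than PBS libraries from each other (18.9 to 35.3). Against TNF replicates 2 and 3 the same measure was 205 and 139. The labels put it in TNF and it stayed there, but its treatment or label could not be checked, and each TNF mean, fold change and test over all 6 libraries includes it. Values without it are given for the Reg genes and for some of the other genes, which are not always those that differ most. In these sorted populations, fewer cells of a type and less RNA per cell cannot be told apart.

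Reg3b was low in every PBS library and very high in 2 of 3 TNF libraries. PBS replicates 1 to 3 had 422, 539 and 641 CPM, whereas TNF replicates 1 to 3 had 663, 12028 and 19161 CPM. TNF replicate 1 lay just above the highest PBS library, and TNF replicates 2 and 3 were far above all others. The mean was 534 ± 109.5 CPM in PBS, against 10617 ± 9329 CPM in TNF (SD, n = 3 each). The fitted difference was 19.9-fold (log2 fold change 4.31, SE 0.99), and 29.6-fold without TNF replicate 1 (4.89, SE 0.36).

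Reg3g had the same shape from a higher baseline. PBS replicates 1 to 3 had 2813, 2441 and 2416 CPM, and TNF replicates 1 to 3 had 3012, 27754 and 36744 CPM. The groups again met at TNF replicate 1, which was close to PBS replicate 1. The mean was 2557 ± 222 CPM in PBS, against 22503 ± 17468 CPM in TNF, an 8.8-fold difference (log2 fold change 3.14, SE 0.80) that came to 12.8-fold without TNF replicate 1 (3.68, SE 0.33). The 3 PBS values of Reg3g had a coefficient of variation of 8.7%, against 20.5% for Reg3b.

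Reg3a, a related lectin encoded close to Reg3b, followed the same pattern with very few counts. Its counts were 3, 8 and 8 in PBS and 9, 74 and 63 in TNF, or 0.216, 0.534 and 0.588 CPM against 0.765, 3.62 and 5.07 CPM. TNF replicates 2 and 3 were the 2 high libraries here too. With enough counts in 2 libraries only, Reg3a did not enter the comparison over all 6, and without TNF replicate 1 its fitted difference was 9.68-fold (log2 fold change 3.27, SE 0.65). Reg3d, which lies between Reg3b and Reg3a, was nearly absent. It had 2 counts in PBS replicate 2 (0.133 CPM) and 0 in the other 5 libraries, where 3 counts, taken as the limit that a 0 allows, correspond to 0.147 to 0.255 CPM in TNF and to 0.216 and 0.220 CPM in PBS replicates 1 and 3, so no difference was detectable at this depth.

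In each of Reg3b, Reg3g and Reg3a, every TNF library was above every PBS library, but this rested on the scaling. TNF replicate 1 had the smallest TMM factor (0.798, against 0.916 to 1.20 in the others). On library size alone, Reg3b in TNF replicate 1 was 528 CPM, between 404 and 684 CPM in PBS, Reg3g was 2399.5 CPM, below the 2579 to 2702 CPM of PBS, and the groups overlapped for Reg3a as well. Of all 13026 genes, 9.07% had every TNF library above every PBS library with TMM factors, and 3.32% with library size. Those below came to 7.82% and 11.2%, so that 16.9% and 14.6% of genes did not overlap between the groups. The members were chosen for this contrast, so nothing is read from their count.

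Reg4 went the other way in the 2 libraries in which the Reg3 genes were high. Its PBS values were 2689, 1940.1 and 2729 CPM, and its TNF values 3669, 849 and 877 CPM. TNF replicate 1 was the highest of the 6 libraries, and TNF replicates 2 and 3 were below all PBS libraries. The means, 2452 ± 444 CPM and 1798 ± 1619.6 CPM, differed by less than the spread within TNF (log2 fold change -0.45, SE 0.56). Without TNF replicate 1, Reg4 was 2.8-fold lower in TNF (log2 fold change -1.49, SE 0.29).

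**Figure D1:**
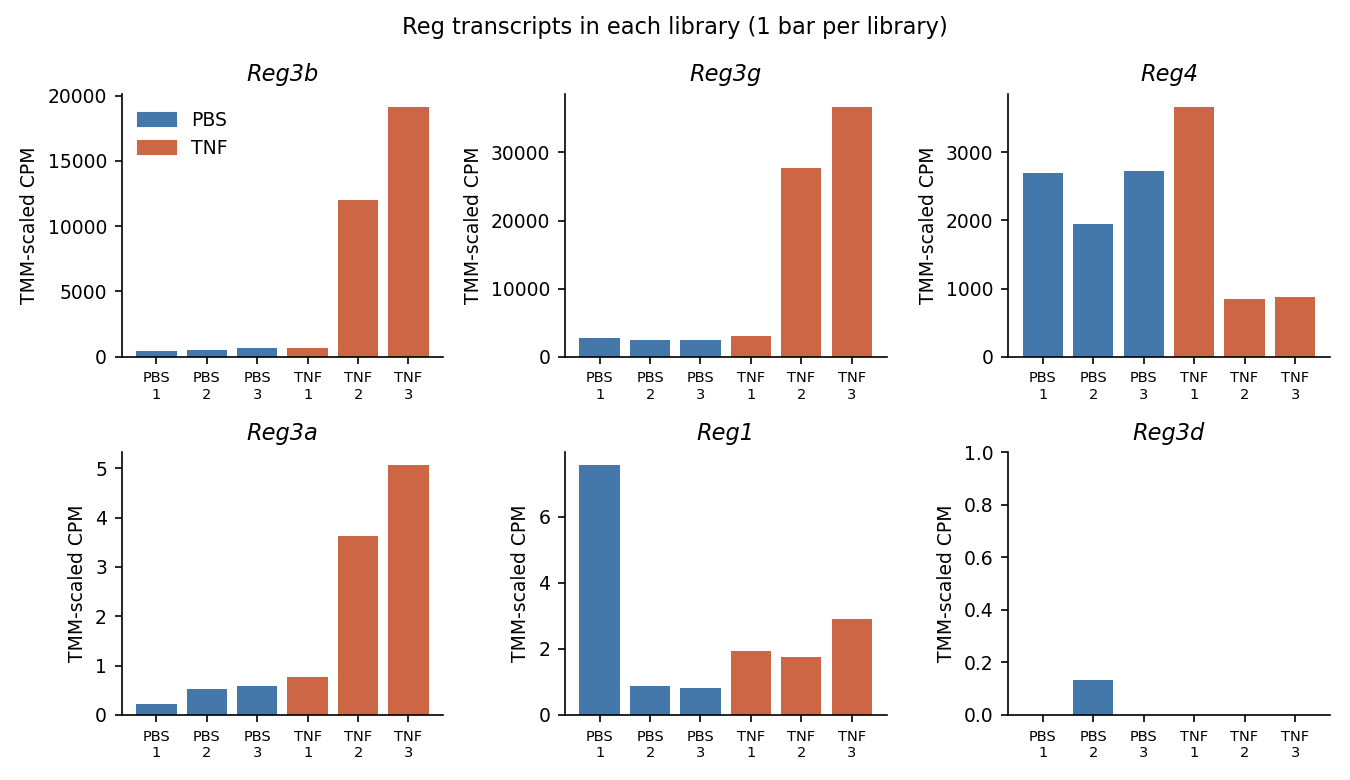
TMM-scaled CPM of the 6 Reg genes, with 1 bar per library (PBS blue, TNF orange) and a linear axis from 0 that differs between panels. Reg3b, Reg3g and Reg3a were high in TNF replicates 2 and 3, Reg4 was low in the same libraries, Reg1 was highest in PBS replicate 1 at 7.57 CPM, and Reg3d had a value in PBS replicate 2 alone.

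Reg1 stood apart in a PBS library instead. Its PBS values were 7.57, 0.868 and 0.808 CPM, and its TNF values 1.95, 1.76 and 2.90 CPM. PBS replicate 1 was the highest of all, and the other 2 PBS libraries were the lowest. The fitted log2 fold change of -0.49 (SE 0.84) was within its error, was -0.39 (SE 0.88) without TNF replicate 1, and turned to 1.38 (SE 0.64) without PBS replicate 1. Reg2 had 21 counts in PBS replicate 1 (1.51 CPM) and 0 in each of the other 5. Reg1 and Reg2 were the most alike of the family, with 82.6% of aligned coding bases identical.

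The same library carried transcripts of the exocrine pancreas. Of 14 acinar genes, all had counts in PBS replicate 1, where they summed to 159 CPM, against 3.74 to 6.32 CPM in the other PBS libraries and 6.7 to 10 CPM in TNF. The carboxypeptidase gene Cpb1 had 20.6 CPM in PBS replicate 1 and was at 0 in the other 5 libraries, as was Pnlip, pancreatic lipase, with 19.5 CPM. The elastase gene Cela1, with 21.3 CPM in PBS replicate 1, had 2.54 to 8.75 CPM elsewhere, and Ctrb1, chymotrypsinogen, had 18.0 CPM there and at most 0.147 CPM elsewhere. In all, 11 or 12 of the 14 genes were at 0 in each of the other libraries. The part of these transcripts in the levels of Reg1 and Reg2 was not tested.

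**Figure D2:**
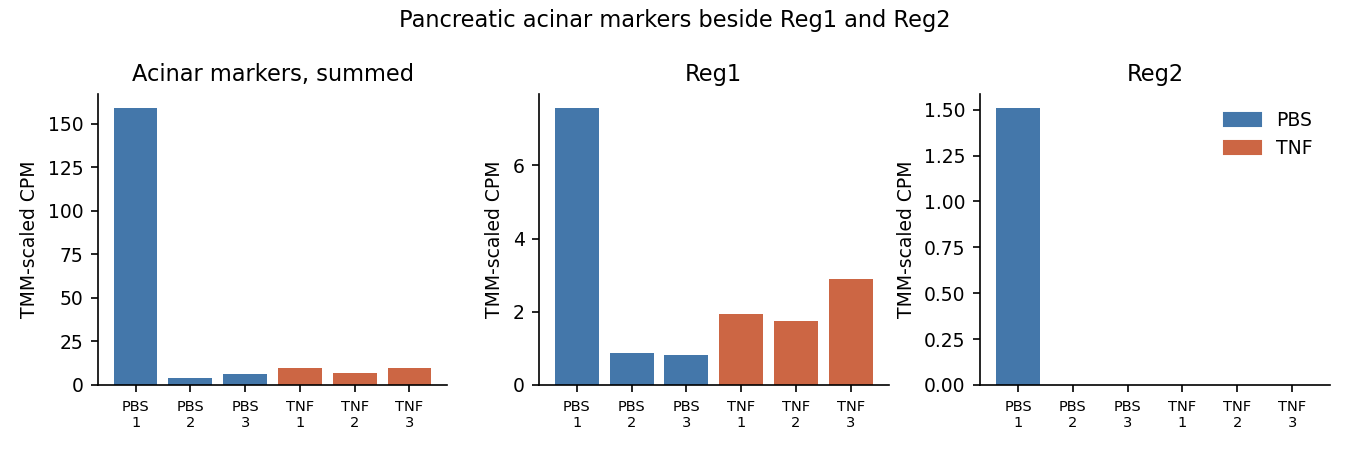
TMM-scaled CPM in each library of 14 pancreatic acinar genes summed (left), Reg1 (middle) and Reg2 (right), 1 bar per library on linear axes from 0. All 3 panels have their highest bar in PBS replicate 1, at 159, 7.57 and 1.51 CPM, while Reg1 also had 0.808 to 2.90 CPM in libraries in which Reg2 was at 0.

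Together the 6 genes made up a small and even part of 4 libraries and a large part of 2. Their share of all counts was 0.568% (95% Wilson interval 0.564 to 0.572), 0.545% (0.541 to 0.549) and 0.618% (0.614 to 0.622) in PBS replicates 1 to 3, and 0.585% (0.581 to 0.589), 4.88% (4.86 to 4.89) and 5.19% (5.18 to 5.2) in TNF replicates 1 to 3. TNF replicate 1 fell inside the PBS range. The mean was 2.97 percentage points higher in TNF, with a pooled SD of 1.82. In TNF replicates 2 and 3, Reg3g ranked 4 and 5 among all genes by counts and Reg3b 9 and 10, from ranks of 20 to 24 and 56 to 95 in the other 4 libraries. Reg4 ranked 49 and 48 in TNF replicates 2 and 3 and 19 to 25 in the others.

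The make-up of this share differed between the same libraries. In PBS and TNF replicate 1, Reg3g gave 41.0% to 49.6% of Reg counts, Reg4 39.4% to 49.9% and Reg3b 7.11% to 11.1%. In TNF replicates 2 and 3, Reg3g gave 68.3% and 64.7%, Reg3b 29.6% and 33.7%, and Reg4 2.09% and 1.54%. For each count of Reg4 there were 0.821 to 1.26 counts of Reg3g in the first 4 libraries and 32.7 and 41.9 in the other 2. The excess of Reg3g over Reg3b was smaller where both were high, at 2.31 and 1.92 counts of Reg3g per count of Reg3b, against 3.77 to 6.67 elsewhere. These ratios are taken within a library and do not depend on the scaling between libraries.

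**Figure D3:**
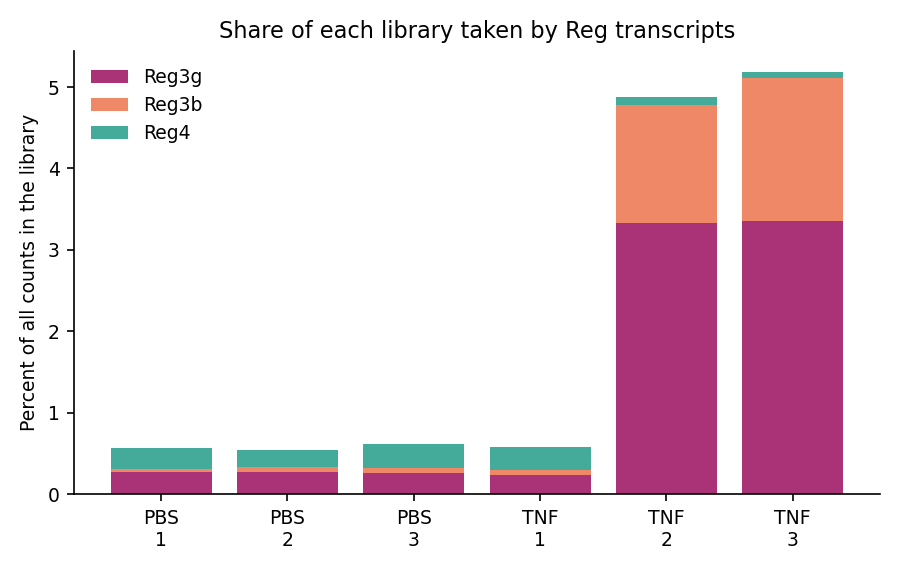
Percent of all counts in each library taken by Reg3g, Reg3b and Reg4, stacked on an axis from 0. The 3 PBS libraries and TNF replicate 1 lie between 0.545% and 0.618% for all 6 genes, with Reg3g and Reg4 about even, and TNF replicates 2 and 3 reach 4.88% and 5.19%, nearly all from Reg3g and Reg3b.

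Levels of different genes were compared per kb of exons. In PBS, Reg4 was highest with 2075 ± 376 CPM per kb, then Reg3g with 1187 ± 103, Reg3b with 372 ± 76.3 and Reg1 with 2.85 ± 3.59. Reg3a had 0.396 ± 0.178 and Reg3d 0.0569 ± 0.0986 CPM per kb. No gene overlapped its neighbour in this order, but Reg3a and Reg3d were parted only at the floor. In PBS replicate 1, Reg3a had 3 counts and Reg3d had 0, for which 3 counts were taken as the limit. With the length of the canonical transcript, Reg3g (3286 ± 286 CPM per kb) came before Reg4 (2388 ± 432), so the order of the first pair depends on the length taken. In TNF, Reg3g had 10452 ± 8114 CPM per kb and Reg3b 7399 ± 6501, followed by Reg4 with 1522 ± 1370.2, Reg3a with 2.80 ± 1.95 and Reg1 with 2.04 ± 0.563. Reg3g and Reg3b overlapped, as did Reg3b and Reg4, and Reg3a and Reg1. For Reg3b and Reg4 the overlap came from TNF replicate 1, in which Reg4 had 3104 CPM per kb and Reg3b 462. Without that library the order was the same, with 14979 CPM per kb for Reg3g, 10867 for Reg3b, 730.4 for Reg4, 3.86 for Reg3a and 2.15 for Reg1 (means of 2 libraries), and Reg3g and Reg3b were the neighbours that overlapped. Within each of the 3 TNF libraries, Reg3g was above Reg3b on this length. With the length of the longest transcript, Reg3b came before Reg3g in TNF replicate 3, at 18128 against 17589 CPM per kb.

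Over all 6 libraries no gene of the table passed an adjusted p of 5% in edgeR's quasi-likelihood test, so that 0 of the 4 members tested and 0.0% of 13026 genes were called, while 12.3% of all genes had an unadjusted p under 0.05. The 4 members had a median log2 fold change of 1.35, against 0.0 over all genes. Without TNF replicate 1, the test called 4 of 5 members, with Reg3b, Reg3g and Reg3a higher in TNF and Reg4 lower, beside 9.10% of 13660 genes called higher and 5.40% called lower (14.5% in all). Reg3a entered that fit only through its counts in the 2 high TNF libraries. Over the 4 members in both fits, the median without TNF replicate 1 was 1.64, against -0.01 over all genes. With all 6 libraries, DESeq2 called 2 members, Reg3b and Reg3g, both higher, beside 1.86% of all genes (1.58% higher, 0.276% lower), and limma-voom called 0 members. With no filter on low counts, edgeR called 3 members, all higher, beside 2.94% of all genes (2.10% higher, 0.849% lower). As the members were picked from this contrast, these counts carry no weight of their own.

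**Figure D4:**
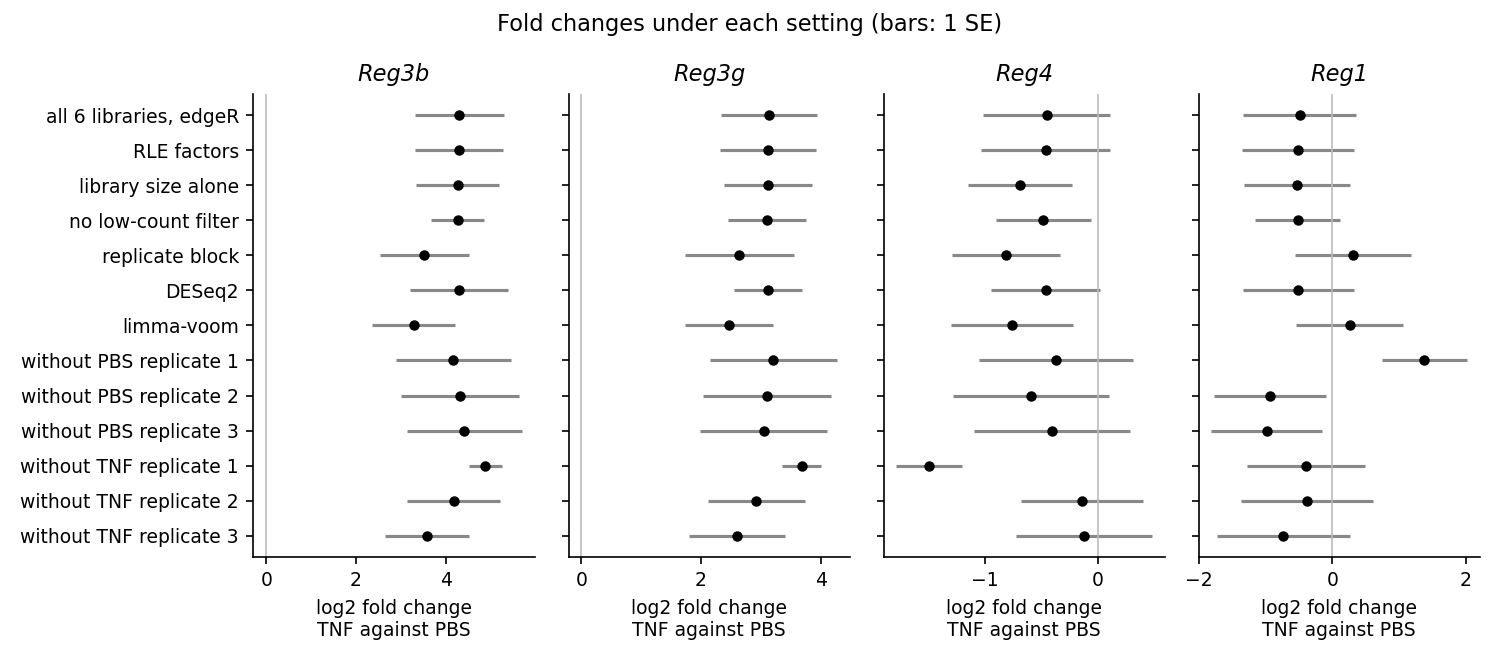
Log2 fold change of TNF against PBS (x axis, bars 1 SE) for Reg3b, Reg3g, Reg4 and Reg1 with all 6 libraries, under other scalings, filters and models, and without each library in turn. Reg3b stays between 3.29 and 4.89 and Reg3g between 2.47 and 3.68, Reg4 runs from -1.49 to -0.12 and is lowest without TNF replicate 1, and Reg1 changes sign.

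The receptors and transducers that lead to STAT3 were then examined, from a list of 15 genes of which 13 were tested. None passed 5% over all 6 libraries (edgeR), and DESeq2 called none either. At an unadjusted p under 0.05 (edgeR), 1 was higher and 1 lower, beside 12.3% of all genes in either direction. Il6st, the shared receptor chain gp130, had 34.8, 32.7 and 32.1 CPM in PBS, then 26.9, 85.6 and 64.1 CPM with TNF, which gave a log2 difference of 0.83 (SE 0.36, edgeR adjusted p 0.400). Socs3, the feedback inhibitor of STAT3 signalling, was the gene lower at that threshold, and was picked after its values were seen. Its PBS values were 34.2, 24.6 and 22.5 CPM and its TNF values 7.56, 5.09 and 20.5 CPM, every one of them below PBS, as in 7.82% of all genes (log2 fold change -1.3, SE 0.46, edgeR adjusted p 0.329). It was -1.09 (SE 0.45, edgeR adjusted p 0.137) without TNF replicate 1. Stat3 itself had 99.2, 75.1 and 75.8 CPM in PBS, then 34.1, 95.1 and 90.0 CPM with TNF, the lowest value being in TNF replicate 1. Its log2 fold change was -0.19 (SE 0.36), and 0.17 (SE 0.21) without TNF replicate 1. The kinase gene Jak1 had a log2 fold change of 0.24 (SE 0.23) and the phosphatase gene Ptpn11 one of 0.42 (SE 0.27). Il22ra1, the chain that gives epithelium its response to IL-22 and named here after its values were seen, had 21.2 to 32.5 CPM in PBS, then 18.1 to 23.4 CPM with TNF, a log2 fold change of -0.37 (SE 0.23). Without TNF replicate 1, 3 of 14 genes were called, all higher, beside 9.10% of all genes called higher: Il6st (1.19, adjusted p 0.00231), Ptpn11 (0.68, adjusted p 0.0482) and Osmr, a receptor chain for oncostatin M. Osmr, which entered the fit only through TNF replicates 2 and 3, had 0.577, 0.2 and 0.147 CPM in PBS, then 0.085, 24.0 and 19.5 CPM with TNF. The gene of IL-22 itself was at 0 in all 6 libraries, as were those of IL-17A and interferon-gamma.

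For the Toll, IL-1 and IL-17 receptors and their adaptors, 14 of 16 genes were tested and none passed 5% with all libraries, by edgeR or DESeq2. At an unadjusted p under 0.05 (edgeR), 3 were higher and 0 lower, beside 12.3% of all genes in either direction. Myd88, the adaptor most closely tied to Reg3g, had 14.2, 11.8 and 15.1 CPM in PBS, then 10.5, 35.2 and 27.2 CPM with TNF, which gave a log2 difference of 0.83 (SE 0.39, edgeR adjusted p 0.429). It was highest in the same 2 libraries as the Reg3 genes. The kinase gene Irak1 (-0.46, SE 0.23) and the adaptors Traf6 (0.20, SE 0.26) and Traf3ip2 (-0.25, SE 0.23) had values on either side of 0. Without TNF replicate 1, 5 of 14 were called, all higher, beside 9.1% of all genes called higher. These were Myd88 (1.21, edgeR adjusted p 0.00434), Tlr2, Tlr4, Il17rc and Ripk2.

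A list of epithelial defence genes linked to STAT3 included large differences in the same 2 libraries. The link only names the list, and the part of STAT3 in these differences was not tested. Of 20 genes, 13 were tested, with none past 5% in edgeR. At an unadjusted p under 0.05 (edgeR), 6 were higher and 0 lower, beside 12.3% of all genes in either direction. DESeq2 called 3, beside 1.86% of all genes. Duox2, the epithelial oxidase that makes hydrogen peroxide, had 21.4, 20.4 and 21.7 CPM in PBS, then 24.0, 412 and 254 CPM with TNF, which gave a log2 difference of 3.44 (SE 0.78, edgeR adjusted p 0.270). Like Reg3b and Reg3g, it was near the PBS level in TNF replicate 1 and high in the other 2. Pigr, which carries IgA across the epithelium (0.25, SE 0.31), Dmbt1, a mucosal scavenger protein (0.70, SE 0.34), and Retnlb, a bactericidal protein (-0.39, SE 0.32), differed less. Without TNF replicate 1, 6 of these 13 genes were called, all higher, beside 9.10% of all genes, among them Duox2 (log2 fold change 4.0, edgeR adjusted p 5.24e-06). A further 4 genes entered that fit, of which Lcn2, S100a9 and Saa3 were called, and these 3 passed the low-count filter only through TNF replicates 2 and 3. Lcn2, the siderophore-binding lipocalin, is named after its values were seen. It was absent or nearly so in 4 libraries, with 0.0721, 0.0 and 0.22 CPM in PBS and 0.34 CPM in TNF replicate 1, and had 72.4 and 89.0 CPM in TNF replicates 2 and 3. Over the 13 genes in both fits, the median log2 fold change was 0.83 with all libraries and 0.97 without TNF replicate 1. It was 0.23 and 0.41 over 13 receptors and transducers, and 0.31 and 0.66 over the 14 genes of the Toll list.

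A last list held other genes typical of PCs, most of them secreted products, without alpha-defensins. Of 14 genes, none passed 5% in edgeR or DESeq2 over all libraries. At an unadjusted p under 0.05 (edgeR), 2 were higher and 1 lower, beside 12.3% of all genes in either direction. Lyz1 (log2 fold change 0.17, SE 0.67), the ribonuclease Ang4 (-0.01, SE 0.54), the lectin Itln1 (-0.53, SE 0.54) and the pentraxin Mptx2 (-0.17, SE 0.72) all lay within their error. With TNF replicate 1 left out, these 4 were at 0.05, -0.60, -0.81 and -1.32, none past 5%. Mptx2, with 17771 to 21253 CPM in PBS, had 36450 CPM in TNF replicate 1 and 3959.8 and 11404 CPM in TNF replicates 2 and 3. Leaving out TNF replicate 1, 3 genes were called higher and 5 lower, beside 9.1% and 5.4% of all genes. Of the 3, the phospholipase Pla2g2a is secreted, whereas Gpx2, a glutathione peroxidase, and Nupr1, a nuclear stress protein, act inside the cell, and these last were also the 2 genes higher at an unadjusted p under 0.05 over all libraries. The 5 included Clps, colipase, and Wnt3, the niche signal that PCs give to stem cells.

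Markers of other cell types were measured beside the Reg genes. Goblet cell markers, whose cells are a known site of Reg4, summed to 5335 to 5673 CPM in PBS and 4402 to 5451 CPM in TNF. Without TNF replicate 1, 6 of 10 were lower (edgeR, 5%), beside 5.4% of all genes. Fcgbp was among them, with 463, 339.6 and 558 CPM in PBS, then 377, 88.4 and 149 CPM with TNF. Those not called had log2 fold changes of 0.46 (Muc2), 0.45 (Sytl2), 0.34 (Spdef) and -0.28 (Agr2) in that fit. Stem cell markers summed to 2634 to 3245 CPM in PBS and 837 to 4798 CPM in TNF. Without TNF replicate 1, 4 of 8 were called lower, beside the same 5.4% of all genes. Olfm4, which made up most of this sum in PBS, had 2374, 2224 and 1925 CPM in PBS, then 3887, 233 and 272 CPM with TNF. It was highest in TNF replicate 1 and lowest in the other 2 TNF libraries, as Reg4 was. The stem cell markers not called without TNF replicate 1 had log2 fold changes of -0.25 (Lgr5), 0.05 (Slc12a2), -0.78 (Axin2) and -0.56 (Rnf43). Enterocyte markers, whose cells also make Reg3b and Reg3g, summed to 324 to 384 CPM in PBS and 98.3 to 276 CPM in TNF, and without TNF replicate 1 the test called 7 of 13 lower and 0 higher, beside 5.40% of all genes called lower. Enteroendocrine markers summed to 48.8 to 129 CPM in PBS and 44.6 to 130.4 CPM in TNF, tuft cell markers to 432 to 1491 and 534 to 1005 CPM, and immune markers to 22.2 to 54.7 and 35.6 to 45.3 CPM, so that the groups overlapped. Most of the immune sum came from Ptprc (3.9 to 33.9 CPM over the 6 libraries) and Lyz2 (13.1 to 27.6 CPM). Every other immune gene was at 1.61 CPM or less, so the sum says little on single kinds of immune cell. The part of goblet and stem cell transcripts in the level of Reg4 was not tested.

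The genes closest to Reg3b and Reg3g in profile were sought among the 13026 by the root mean square difference of log2 CPM over the 6 libraries, each gene being set to its own PBS mean. For Reg3b these were S100a11 (0.458), Duoxa2 (0.508), Fam3b (0.570), Slfn2 (0.576) and B3galt5 (0.647). For Reg3g they were Gpx2 (0.258), Cyba (0.354), Duox2 (0.365), Acadl (0.376) and Sting1 (0.430). Reg3g ranked 13 for Reg3b and Reg3b ranked 53 for Reg3g, at a difference of 0.741, since Reg3b was 4.51 and 5.19 above its PBS mean on the log2 scale in TNF replicates 2 and 3, and Reg3g 3.44 and 3.85. Gpx2 had 234, 234 and 263 CPM in PBS, then 217, 2613 and 2657 CPM with TNF. For Reg4, added after its values were seen, the closest were Pclaf (0.142), Pcca (0.142), Cenpe (0.144), Afg1l (0.154) and Cenpi (0.160). With 6 libraries, of which 2 set most of the profile, these lists are a description.

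**Figure D5:**
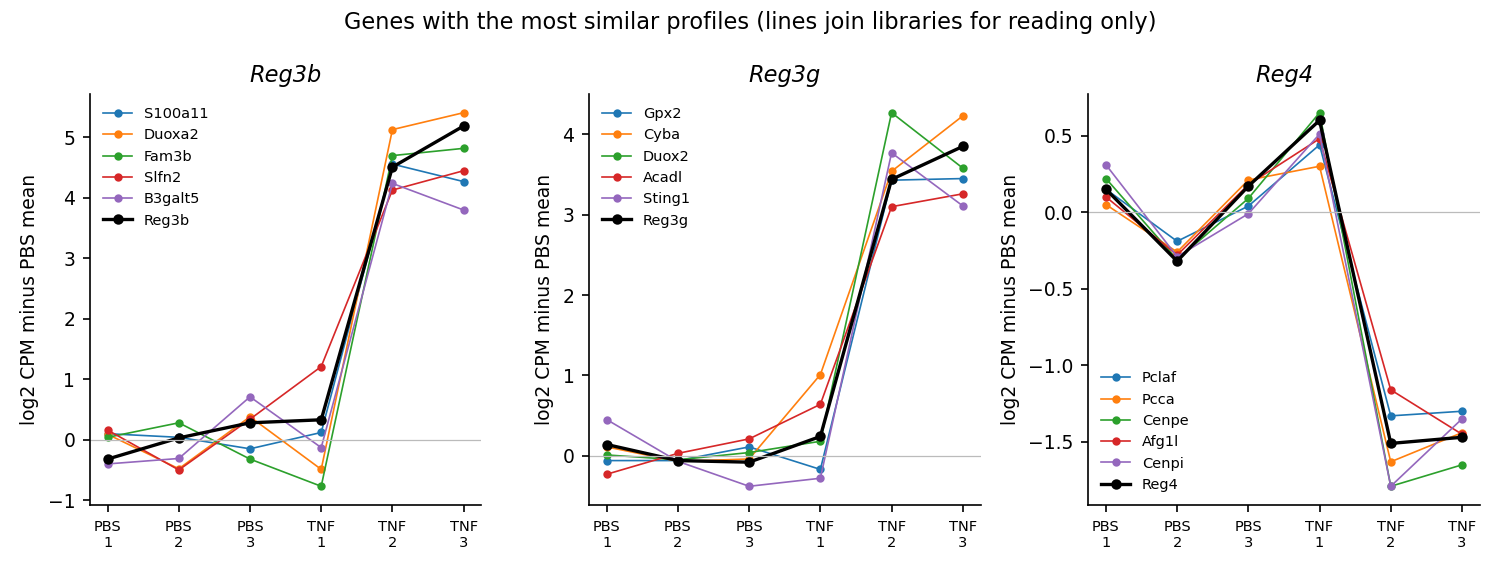
Log2 CPM minus the PBS mean of the gene in each library for Reg3b, Reg3g and Reg4 (black) and the 5 genes closest to each (colours), with lines that only join the libraries. Reg3b and Reg3g stay near 0 in PBS and TNF replicate 1 and reach 5.19 and 3.85 in TNF replicate 3, whereas Reg4 is at 0.60 in TNF replicate 1 and at -1.51 and -1.47 in TNF replicates 2 and 3.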

How the data were processed

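RNA of sorted PCs from 3 PBS and 3 TNF mice was purified with the Aurum Total RNA Mini kit and read single-end on an Element AVITI. The authors deposited 1 table of raw counts per Ensembl gene. The submitters' processing notes name FastQC, Trimmomatic 0.39, STAR 2.7.10a, DESeq2 and build mm39 (GRCm39). For the counter, its annotation, its use of strand and its handling of shared reads, nothing is given in the sources used here. The paper given as a source describes other experiments.

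Of 55414 identifiers, 54749 matched GENCODE on GRCm39, and the unmatched ones held 0.0193% of counts. Groups and replicate numbers came from the labels. Per the design text each library came from a different mouse. The libraries of a group were not duplicates (chi-square per degree of freedom 18.9 or more). In R 4.3.3, filterByExpr kept genes (minimum count 10, minimum total count 15), which asks for 3 libraries, and 4 of 6 members passed. TMM factors, edgeR 4.0.16 (quasi-likelihood, two-sided, group as the term) and Benjamini-Hochberg adjustment over all genes at 5% were used. Each SE is the log2 fold change over the square root of F. Log2 CPM used a prior count of 2. The steps were tested on simulated data.

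Alternatives were RLE factors, library size, no filter, each library left out, a replicate block, DESeq2 1.42.0, limma-voom (limma 3.58.1), another total for the share and other lengths. The members and the gene lists were chosen with earlier results of these data known. Named genes were the members, Reg2, the 4 genes of highest mean CPM in each list, any list gene past 5% in edgeR over all 6 libraries (none was) and the 5 genes closest to Reg3b and to Reg3g, and other named genes were picked after their values were seen. Of the marker lists, values are given for the genes the text turns on. Intervals and the limit for a count of 0 (3 counts) cover counting error only.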

Additional observations from a re-analysis of the deposited data

How the results depend on the processing

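With all libraries, 0 genes of each list passed 5% in edgeR. Of the Reg members, 3 passed with no low-count filter, 2 with DESeq2 and 0 to 4 when 1 library was left out, the 4 being without TNF replicate 1. Such ranges were 0 to 3 for the IL-22 and IL-6 list (2 with no filter), 0 to 5 for the Toll list, 0 to 9 for the STAT3-linked genes (6 with no filter, 3 with DESeq2) and 0 to 8 for other PC products (2 with no filter), each highest without TNF replicate 1. RLE factors, library size and limma-voom gave 0 for all 5. The Reg share was 2.97 points higher in TNF (2.15 to 4.46 without single libraries, highest without TNF replicate 1) and 5.08 with alpha-defensins and Lyz1 left out of the total. The order of levels in PBS kept 4 of 6 places with canonical transcript lengths, and that in TNF all 6 without TNF replicate 1, both chosen after seeing the data. Reg1 reversed to 1.38 without PBS replicate 1 (range -0.98 to 1.38), to 0.26 in limma-voom and to 0.31 in the replicate block, and the cause was not tested. Reg3b, Reg3g and Reg4 kept their sign in all 12 alternatives. The labels give same-numbered libraries nothing in common but the number. Their deviations from the group means correlated at -0.0128, -0.0748 and 0.0311. With 3 libraries a group and TNF replicate 1 apart, these values cannot show whether a litter or day was shared. The replicate block called 0 members. Library size alone moved the median of all genes to -0.11 on the log2 scale. With 3 mice a group, 1 TNF library standing apart, and few counts for Reg3a, Reg3d and Reg1, differences in these 3 rest on little depth.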
